A study of Mus musculus with 6 samples.

Results

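Kainate receptor subunits (Grik1 to Grik5), the delta receptor subunit Grid1 and the kainate receptor partners Neto1 and Neto2 were followed in hippocampi from Glud1 Tg mice and from wt mice. The 8 genes were chosen by name, and their members are the probesets annotated to 1 of these symbols and to no other gene. There were 16 such probesets among the 45037 that remained after control probesets were set aside, and 15 of them, with at least 1 for each of the 8 genes, passed a filter on dim signals that kept 31076 probesets. The Tg group held 3 mice that carry an added Glud1 gene (glutamate dehydrogenase 1, a mitochondrial enzyme that makes and consumes Glu) driven by the promoter of neuron-specific enolase, and the wt group held 3 mice without it. All 6 were untreated males on the C57BL/6 background at 9 months of age. The question of the study was how hippocampal gene expression differs under a lifelong, moderate excess of synaptic Glu, and 1 Affymetrix Mouse Genome expression array was hybridised per mouse.

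Kainate receptors are Glu-gated ion channels built from 4 of the subunits GluK1 to GluK5. GluK1, GluK2 and GluK3 can form channels on their own, while GluK4 and GluK5 bind kainate tightly and reach the surface only together with one of the former. In the hippocampus these receptors are best known from the mossy fiber synapse between dentate granule cells and CA3 pyramidal cells, where they act on both sides of the synapse, and from interneurons. NETO1 and NETO2 are auxiliary proteins that change the kinetics and ligand affinity of kainate receptors. The delta receptor GRID1 (GluD1) belongs to the same superfamily by sequence but works mainly as a synapse organizer, tied to presynaptic neurexins by secreted cerebellins.

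Promoter windows of Grik3, Grik4 and Grik2, whose arrays separated by group at the brightest probeset, are shown first. Tg values were lower for Grik3 and higher for Grik2 and Grik4. A link between the letters of a window and these directions was not tested. They are RefSeq sequences on GRCm38.p6, 250 bases before and 50 bases from the annotated start, written 5′ to 3′ on the strand of the gene. Capitals mark GGGCGG or its complement CCGCCC, the core of a GC box. RefSeq windows matched 5 of the 8 genes (Grik2, Grik3, Grik4, Grik5 and Neto2). Grik3 lies at chr4:125490446-125490745 on the plus strand, Grik4 at chr9:42944322-42944621 on the minus strand and Grik2 at chr10:49788705-49789004 on the minus strand.
Grik3: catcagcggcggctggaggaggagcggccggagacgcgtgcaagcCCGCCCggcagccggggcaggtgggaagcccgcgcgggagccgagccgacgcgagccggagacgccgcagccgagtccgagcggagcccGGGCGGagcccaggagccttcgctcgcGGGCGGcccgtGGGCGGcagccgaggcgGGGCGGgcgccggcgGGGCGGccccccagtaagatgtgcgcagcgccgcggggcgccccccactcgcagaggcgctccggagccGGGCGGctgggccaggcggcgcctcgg
Grik4: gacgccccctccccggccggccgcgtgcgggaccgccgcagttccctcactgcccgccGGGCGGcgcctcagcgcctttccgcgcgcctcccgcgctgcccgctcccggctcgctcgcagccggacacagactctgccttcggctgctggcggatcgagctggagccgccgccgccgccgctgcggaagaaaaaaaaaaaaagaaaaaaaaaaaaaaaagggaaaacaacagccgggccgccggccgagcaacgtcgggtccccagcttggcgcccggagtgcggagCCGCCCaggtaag
Grik2: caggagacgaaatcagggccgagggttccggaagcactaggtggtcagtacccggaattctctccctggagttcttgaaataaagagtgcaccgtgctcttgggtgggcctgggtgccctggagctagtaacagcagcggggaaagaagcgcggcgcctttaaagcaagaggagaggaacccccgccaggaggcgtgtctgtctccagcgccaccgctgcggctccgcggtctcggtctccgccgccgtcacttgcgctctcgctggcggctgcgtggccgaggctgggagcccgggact

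The Grik3 window held 7 GGGCGG matches over both strands, with a GC content of 82.0% and 50 CG dinucleotides. The Grik4 window held 2 matches at a GC content of 70.0%, and the Grik2 window held 0 at 64.7%. Over the 32841 RefSeq windows of the same length, 35.7% held at least 1 GGGCGG on either strand, and the median GC content was 52.7%. The letters TATAAA, found in 13.6% of all windows, and TGACGTCA, the full cyclic AMP response element, found in 1.79%, were in none of the 3 windows on either strand. These motifs do not overlap each other, and a match is a description of letters, not of binding. Grik5 and Neto2, whose groups overlapped at the brightest probeset, had windows that are not shown. The Grik5 window held 2 GGGCGG matches at a GC content of 72.0%. Neto2 had a window with 2 at 72.0% and another with 0 at 42.7%.

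Signals below are the linear MAS5 intensities as deposited, given for Tg 1 to Tg 3 and then wt 1 to wt 3. A difference is Tg minus wt on the log2(signal + 16) scale, which understates the change of dim probesets, with its standard error (SE) from limma. A p value is two-sided, and an adjusted p is corrected over all 31076 kept probesets. Signals of different probesets depend on their probes, so no gene's level was set against another's. Whole hippocampus was homogenized, so fewer cells of a type, less RNA per cell and a different share of neighbouring tissue cannot be told apart.

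No member probeset reached an adjusted p under 0.05, and limma called 0 of the 31076 kept probesets (0%). Adjusted p values of the 15 kept member probesets ran from 0.325 to 0.986. At an unadjusted p under 0.05 there was 1 of 15, Grik3, against 9.69% of all kept probesets (5.91% higher and 3.78% lower in Tg). All Tg arrays lay above all wt arrays at 3 member probesets, of Grik2, Grik4 and Neto1, against a background of 8.58%. They lay below at 1, of Grik3, against 6.67%. Of the 15 differences 8 were positive and 7 negative with a median of 0.020, and over all kept probesets 53.2% were positive with the same median of 0.020.

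**Figure D1:**
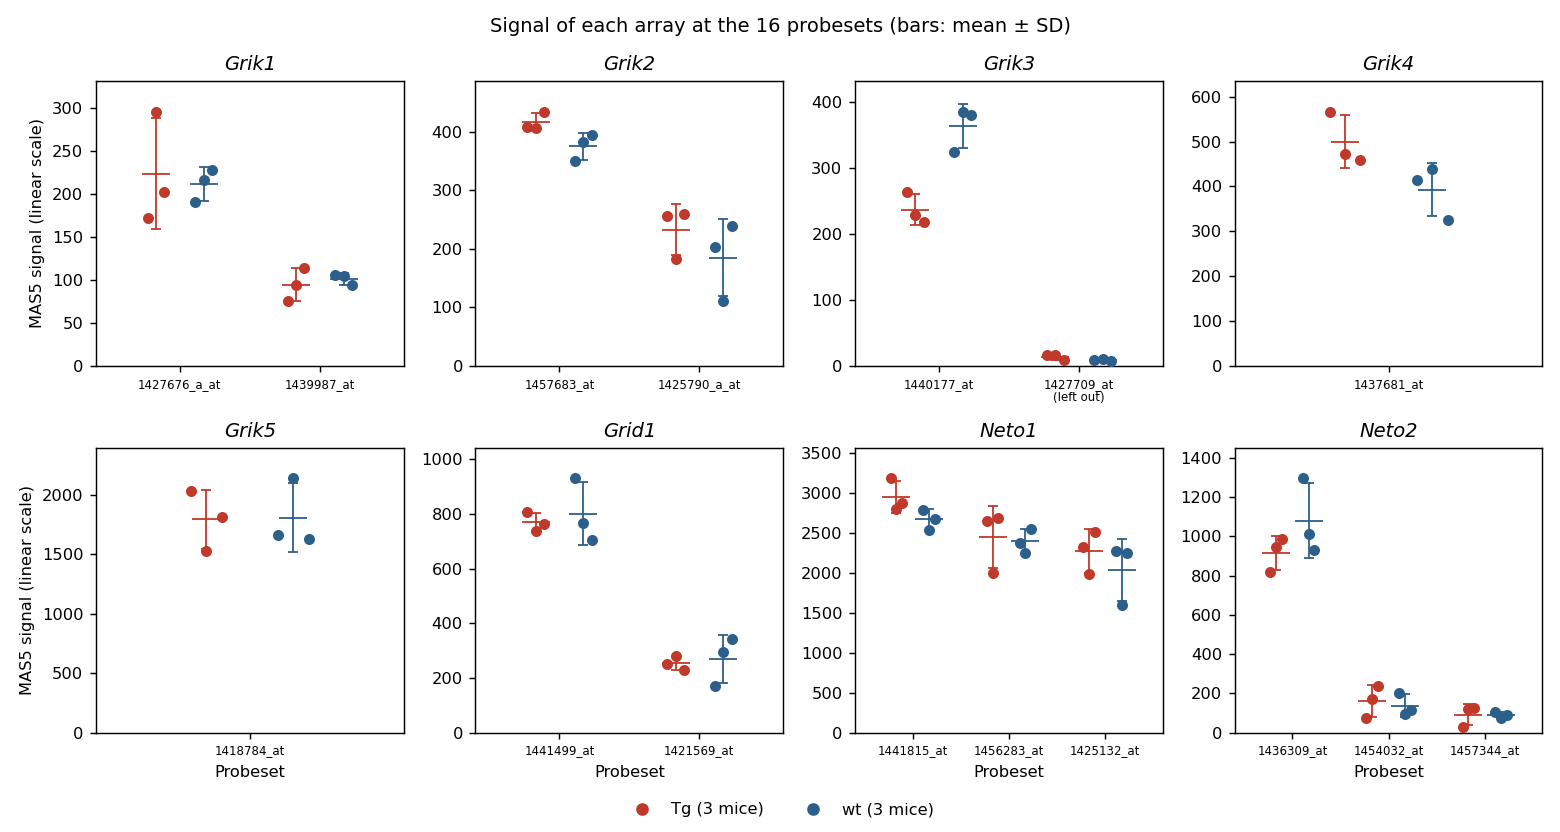
MAS5 signal at each of the 16 member probesets, including the Grik3 probeset that was left out, on a linear axis. There is 1 point per array, with the mean and SD of each group of 3. At the brightest probeset of each gene, Grik3 is the one with all 3 Tg arrays below the wt arrays, while Grik2, Grik4 and Neto1 have all 3 above. At the other probesets of Grik2 and Neto1 the groups overlap.

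Among the subunits that can form channels by themselves, the values went different ways. Grik3 encodes GluK3, a subunit known for low Glu sensitivity and for presynaptic receptors at mossy fibers. At its probeset 1440177_at the signals were 263.1, 228.4 and 217.5 in Tg and 324.2, 384.9 and 379.6 in wt. Every Tg array lay below every wt array. The group means were 236.3 ± 23.8 and 362.9 ± 33.6 (SD, n = 3 each), and the difference was −0.59 (SE 0.18, 95% interval −0.99 to −0.19), which is 0.666 times the wt level. In limma this had an unadjusted p of 0.00769, rank 735 of all kept probesets, and an adjusted p of 0.325, so it did not pass the test.

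The Grik3 value rests on 1 probeset. The other Grik3 probeset, 1427709_at, read 16.6, 16.5 and 9.0 in Tg and 8.7, 10.9 and 8.0 in wt, and was left out as too dim. Probeset 1440177_at also stands in the study's own table of differential probesets, under the name of a hypothetical protein and not as Grik3. The gene name used here is that of the platform annotation. The probeset was therefore already picked on these same mice, and its separation here is not independent evidence.

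Grik2 encodes GluK2, the principal subunit of mossy fiber kainate receptors. The study also named it on these mice, among several Glu receptors it called marginally altered, so its values are not independent evidence. Its probeset 1457683_at read 408.2, 406.5 and 434.2 in Tg and 349.4, 381.6 and 394.1 in wt. The Tg arrays lay above the wt arrays by a narrow margin, and the difference of 0.15 (SE 0.15, interval −0.19 to 0.48) had an adjusted p of 0.794 in limma. The second probeset, 1425790_a_at, read 256.5, 182.2 and 259.7 in Tg and 203.5, 111.7 and 238.8 in wt. There the groups overlapped, with Tg 2 and wt 2 the lowest of their groups, and the difference was 0.35 (SE 0.29, adjusted p = 0.724 in limma).

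Grik1 encodes GluK1, a subunit best known from interneurons. At 1427676_a_at it read 171.6, 295.3 and 202.4 in Tg and 190.0, 216.0 and 227.6 in wt. The wt arrays lay within the range of the Tg arrays, whose spread came mainly from Tg 2. The difference was 0.044 (SE 0.24, interval −0.48 to 0.57), and it turned to −0.028 under quantile normalization and to −0.022 with arrays centred on their medians. The dim probeset 1439987_at had a difference of −0.097 (SE 0.32), so no direction can be given for Grik1.

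The high-affinity subunits, which need a partner from the group above, were read by 1 probeset each. Grik4, encoding GluK4, a subunit concentrated in CA3 pyramidal cells, read 566.7, 473.1 and 458.2 in Tg and 413.4, 439.0 and 325.4 in wt. All Tg arrays lay above all wt arrays. The means were 499.3 ± 58.8 and 392.6 ± 59.6, a 1.27-fold higher value in Tg with a difference of 0.34 (SE 0.17, interval −0.031 to 0.71). The unadjusted p was 0.0688 and the adjusted p 0.552 in limma, so the call was not made. With single arrays left out the difference ran from 0.22 (without wt 3, unadjusted p = 0.256 in limma) to 0.42 (without wt 2, 0.0466), and without wt 1 and wt 2 together it was 0.59. The unadjusted p was 0.116 after quantile normalization and 0.144 with arrays centred.

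Grik5 encodes GluK5, the common partner of GluK2 in the brain. Its probeset 1418784_at read 2030.0, 1532.7 and 1818.1 in Tg and 1665.0, 2139.9 and 1625.3 in wt. The groups overlapped throughout. The difference was −0.011 (SE 0.13, interval −0.30 to 0.28), and it changed sign to 0.0095 under quantile normalization.

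**Figure D2:**
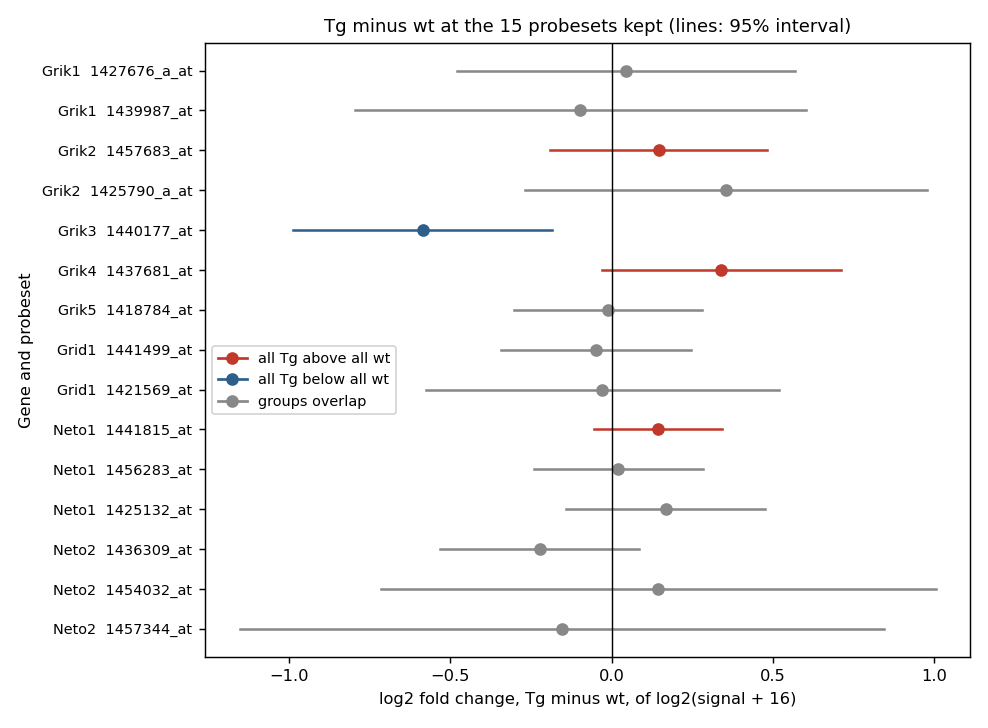
Difference between Tg and wt at each of the 15 kept member probesets on the log2(signal + 16) scale, with 95% intervals from limma, colored by whether the 3 Tg and 3 wt arrays overlap. The interval of Grik3 (−0.99 to −0.19) is the one that does not include 0, and that of Grik4 ends at −0.031.

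The auxiliary proteins did not share a direction. Neto1, which binds kainate receptors at mossy fiber synapses, read 3185.4, 2801.3 and 2870.1 in Tg and 2792.9, 2535.0 and 2681.6 in wt at its brightest probeset 1441815_at. The groups were separated only by the small gap between Tg 2 and wt 1. The difference was 0.14 (SE 0.091, interval −0.055 to 0.34, adjusted p = 0.641 in limma). At the other Neto1 probesets, 1456283_at and 1425132_at, the groups overlapped and the differences were 0.020 (SE 0.12) and 0.17 (SE 0.14). The first of these became −0.046 with arrays centred on their medians.

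Neto2 read 818.9, 946.4 and 985.2 in Tg and 1295.9, 1011.8 and 932.5 in wt at 1436309_at. Wt 1 was the highest array, and wt 3 lay below 2 of the Tg arrays. The difference was −0.22 (SE 0.14, interval −0.53 to 0.086, adjusted p = 0.641 in limma), and without wt 1 it was −0.086. The dimmer probesets 1454032_at and 1457344_at gave 0.14 (SE 0.40) and −0.16 (SE 0.46). Tg 1 had the lowest signal at both of them, 75.7 and 29.6.

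The delta subunit Grid1 read 807.4, 739.5 and 763.0 in Tg and 930.8, 769.0 and 706.4 in wt at 1441499_at. The Tg arrays lay within the wt range, with a difference of −0.049 (SE 0.14, interval −0.34 to 0.25). At 1421569_at it read 250.9, 279.4 and 230.0 in Tg and 170.4, 293.5 and 341.5 in wt, a difference of −0.030 (SE 0.25). The wt arrays were the more spread at both probesets.

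Separation of the arrays depended on scaling. After quantile normalization all Tg arrays still lay above all wt arrays at Neto1 alone (7.22% of all kept probesets did so), and with arrays centred on their medians at none of the member probesets (5.81%). The Tg arrays of Grik3 lay below the wt arrays under both, where 7.57% and 11.2% of all probesets did. Across the alternatives that were run, the Grik3 difference stayed between −0.66 and −0.51, and its unadjusted p between 0.00305 and 0.0393.

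**Figure D3:**
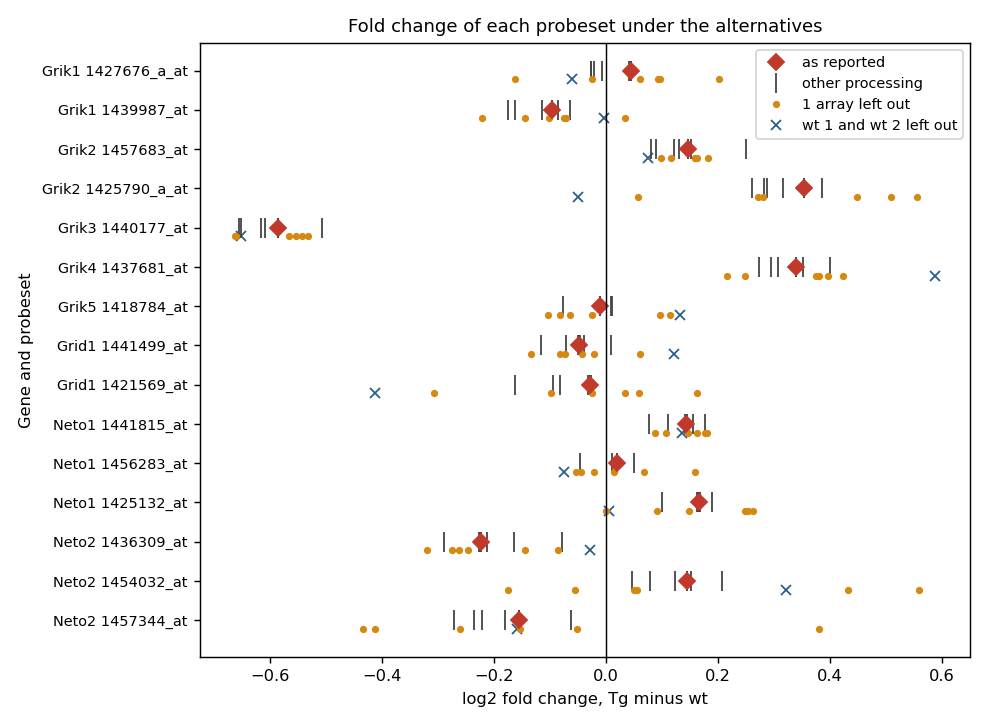
Difference between Tg and wt on the log2 scale at the 15 kept member probesets, as reported (diamonds), under other processing (bars) and with arrays left out (dots and crosses). Grik3 lies between −0.66 and −0.51 under all of them and Grik4 between 0.22 and 0.59. Both Grik1 probesets, both Grid1 probesets and Grik5 fall on both sides of 0, as do the dimmer kept probesets of Grik2, Neto1 and Neto2.

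Likeness of patterns over the 6 arrays is given as a description. For each member at its brightest probeset, the 2 of 13853 other genes with the highest Pearson r were named, each the highest of 13853 values over 6 arrays. For Grik3 they were Chchd1 (0.995) and Cacnb4 (0.994), for Grik4 Tmem184b (0.992) and St6galnac3 (0.976), and for Grik2 Snap23 (0.995) and Sptb (0.995). For Grik1 they were Pim3 (0.990) and Snx31 (0.986), and for Grik5 Ston2 (0.988) and Adar (0.986), an RNA editing enzyme of the family that recodes kainate receptor transcripts. For Grid1 they were Dot1l (0.997) and Dapk1 (0.995), for Neto1 Rasd1 (0.995) and Mcoln1 (0.990), and for Neto2 Pnoc (0.995) and Glg1 (0.991). Over the 28 pairs of members, r ran from −0.747 (Grik2 and Neto2) to 0.681 (Grid1 and Neto2). All of these share the same 6 arrays and the group difference.

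Proteins that bind these receptors were counted from a list of 25 partner genes, of which 23 were measured. At the brightest probeset of each, 10 differences were positive and 13 negative with a median of −0.025, while over all 13854 genes 44.1% were positive with a median of −0.031. At an unadjusted p under 0.05 there were 1 higher and 3 lower partners, against 2.9% and 4.97% of all genes (7.87% together), and none passed the adjusted test. Of the 23, 11 stand in the study's own gene lists (Dlg1, Dlg4, Cbln1, Cbln4, Camk2a, Prkca, Grip1, Nrxn3, Klhl24, C1ql3 and Adar), which were made on these mice, so their values are not independent evidence. All 4 partners with an unadjusted p under 0.05 are among them. The match was by gene, without regard to probeset or direction. For only 3 partners does the study's table hold the brightest probeset, which is the one read here.

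The cerebellins, the secreted bridge between neurexins and delta receptors, had negative differences that did not pass the test. Cbln1 at its brightest probeset 1423286_at read 159.7, 194.8 and 159.1 in Tg and 392.2, 257.5 and 282.3 in wt. The difference was −0.79 (SE 0.23, adjusted p = 0.275 in limma). The groups did not overlap at any of its 3 probesets, and the other differences were −1.14 (SE 0.23) and −0.93 (SE 0.31).

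Cbln4 read 290, 267 and 230.5 in Tg and 359, 448.6 and 495 in wt, a difference of −0.69 (SE 0.19, adjusted p = 0.257 in limma). Cbln2, chosen after its values were seen because it completes the measured cerebellins, read 126.4, 188.2 and 179.6 in Tg and 284.7, 189.9 and 242 in wt. Its difference was −0.50 (SE 0.25, adjusted p = 0.552 in limma), and Tg 2 and wt 2 were almost level. At all 3 genes the Tg arrays lay below the wt arrays, as they did at 6.67% of all kept probesets, and none passed the adjusted test.

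The scaffold genes had differences of opposite sign at their brightest probesets. Dlg4 encodes PSD-95, which anchors GluK2 and GluK5 at the postsynaptic density, and read 2314.3, 1654.5 and 2536.7 in Tg and 1554.1, 943.4 and 1501.7 in wt. The difference was 0.71 (SE 0.19, adjusted p = 0.260 in limma), and Tg lay above wt at all 3 of its probesets. Dlg1, encoding SAP97, read 2628.8, 2808.7 and 2603.8 in Tg and 3299.2, 3298.7 and 3106.8 in wt. Its difference was −0.27 (SE 0.085, adjusted p = 0.326 in limma) at the brightest probeset, but the groups overlapped at its other 2 probesets (−0.057 and 0.013).

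The brightest other partners overlapped between groups at their brightest probesets. Camk2a, the synaptic calcium/calmodulin kinase, had a difference of 0.30 (SE 0.18) at its brightest probeset. Its other 4 kept probesets gave 0.38, 0.63, 0.65 and 0.93, the lowest adjusted p being 0.212 in limma, and at 1 of them (0.65) all Tg arrays lay above all wt arrays. Nsf, a membrane fusion ATPase, had 0.073 (SE 0.075), with 0.13 and 0.44 at its other kept probesets. Ctnnb1, beta-catenin, had −0.025 (SE 0.087), with 0.18 and 0.081 at the others, so its sign depended on the probeset.

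**Figure D4:**
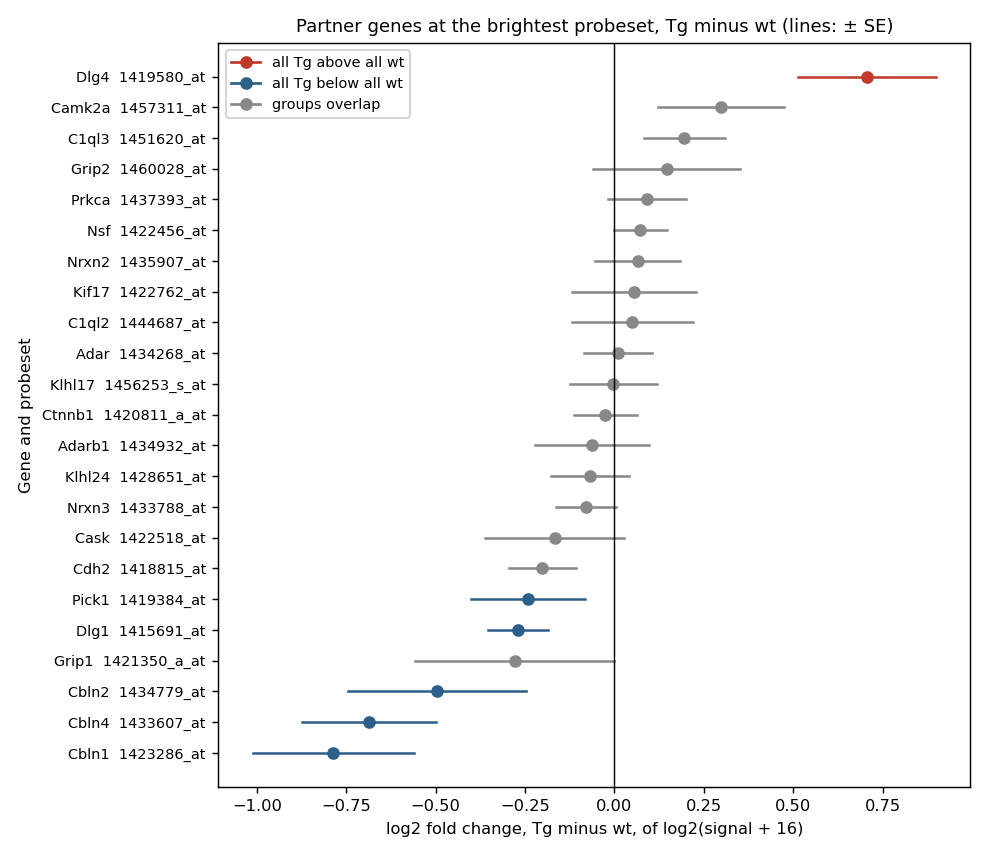
Difference between Tg and wt on the log2(signal + 16) scale for the measured partner genes at their brightest kept probesets, with lines of 1 SE on each side from limma. Dlg4 (0.71) lies highest and Cbln1 (−0.79) lowest, and no partner passed the adjusted test.

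Among the other Glu receptors none was called. Of the 4 AMPA receptor subunits 2 differences were positive and 2 negative (median 0.010). Of 6 measured NMDA receptor subunits 2 were positive and 4 negative (median −0.19), and of 6 measured metabotropic receptors 0 and 6 (median −0.15). Over all genes 44.1% were positive, with a median of −0.031. The study named Gria1, Gria3, Grm4 and Grm8 as marginally altered on these mice, so their values are not independent evidence. Gria4, an AMPA receptor subunit, read 1095.1, 1055.5 and 1022.8 in Tg and 1337.6, 1313.1 and 1286.2 in wt. The groups were separate, with a difference of −0.31 (SE 0.10, adjusted p = 0.355 in limma), while its other 2 probesets overlapped with differences of 0.32 and −0.067.

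Among NMDA receptor subunits, Grin2a (1.05, SE 0.38) and Grin3a (−0.42, SE 0.19) had an unadjusted p under 0.05 with overlapping groups, and adjusted p values of 0.400 and 0.513 in limma. Both stand in the study's own table of differential probesets.

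Markers of hippocampal fields and of other cells also differed in value between the groups, and their part in the member values was not tested. By gene, the study's table, made on these mice, held 4 dentate markers, 1 of CA2 and CA3 and 1 of CA1. It also held 3 retrohippocampal, 2 interneuron, 2 astrocyte and 1 oligodendrocyte markers. The values of these markers are not independent evidence. Over all genes 44.1% of differences were positive. All 8 dentate granule cell markers were positive (median 0.50), as were 5 of 7 CA2 and CA3 markers (0.25) and 6 of 8 CA1 markers (0.13). The brightest of each were Calb1 (0.21) and Stxbp6 (0.20), Rgs14 (0.28) and Nectin3 (0.44), and Wfs1 (−0.29) and Man1a (0.0072). Summed over the dentate markers, the Tg arrays spanned 13450.3 to 15123.6 and the wt arrays 10401 to 13523.9. For CA2 and CA3 markers these spans were 5712.2 to 6916.6 and 4739.7 to 5483.

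Markers of retrohippocampal cortex, interneurons and striatum had negative differences throughout. All 6 measured markers of subiculum and other retrohippocampal cortex (median −0.75, among them Nr4a2 at −0.093 and Fn1 at −0.47), all 10 of GABAergic interneurons (−0.35, with Gad1 at −0.13 and Sst at −0.48) and all 5 of striatum (−1.06, with Rgs9 at −0.28 and Drd1 at −1.47) were negative. Summed signals of the retrohippocampal markers spanned 4052.7 to 4774.2 on Tg arrays and 5961 to 6475 on wt arrays. Those of interneurons spanned 20362 to 24213.8 and 25281.6 to 30898.6, and those of striatum 528.1 to 799.5 and 1135.5 to 1229.4. No marker passed the adjusted test.

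Choroid plexus markers (8 of 8 negative, median −0.78, with Ttr at −1.20 and Clic6 at −0.77) varied between Tg mice more than between groups, with sums spanning 4523.2 to 67266.5 on Tg arrays and 48155 to 54690.1 on wt arrays. Glial and vascular lists had medians of −0.15 in astrocytes (Slc1a2 −0.029, Aldoc −0.16), −0.11 in oligodendrocytes (Mbp 0.096, Cnp −0.20), −0.0042 in microglia (Csf1r −0.18, C1qa −0.067) and −0.15 in endothelial cells (Slco1c1 −0.051, Cldn5 −0.22). Astrocyte sums spanned 74632.4 to 79423.7 on Tg arrays and 80742.3 to 84478.4 on wt arrays, and microglial sums 12198.8 to 12417.4 and 12808.6 to 13663.8. Of the 11 marker lists, the sums lay below wt on all Tg arrays in 5 (retrohippocampal cortex, interneurons, striatum, astrocytes and microglia). They lay above in 1 (CA2 and CA3) and overlapped in 5. Among all kept probesets 6.67% had every Tg array below wt and 8.58% above, but no such share was taken for sums. The lists were chosen with earlier results of these data known, so this split is not read as a result about cell types. Sums weight the bright markers most, and the split depended on the measure. By mean-centred log2 level, CA2 and CA3 markers overlapped (Tg 2 −0.076, wt 2 −0.016), as did microglial markers (Tg 3 0.023, wt 3 −0.066). Dentate markers, whose sums overlapped, then lay above wt on all Tg arrays (lowest Tg 0.19, highest wt 0.080).

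**Figure D5:**
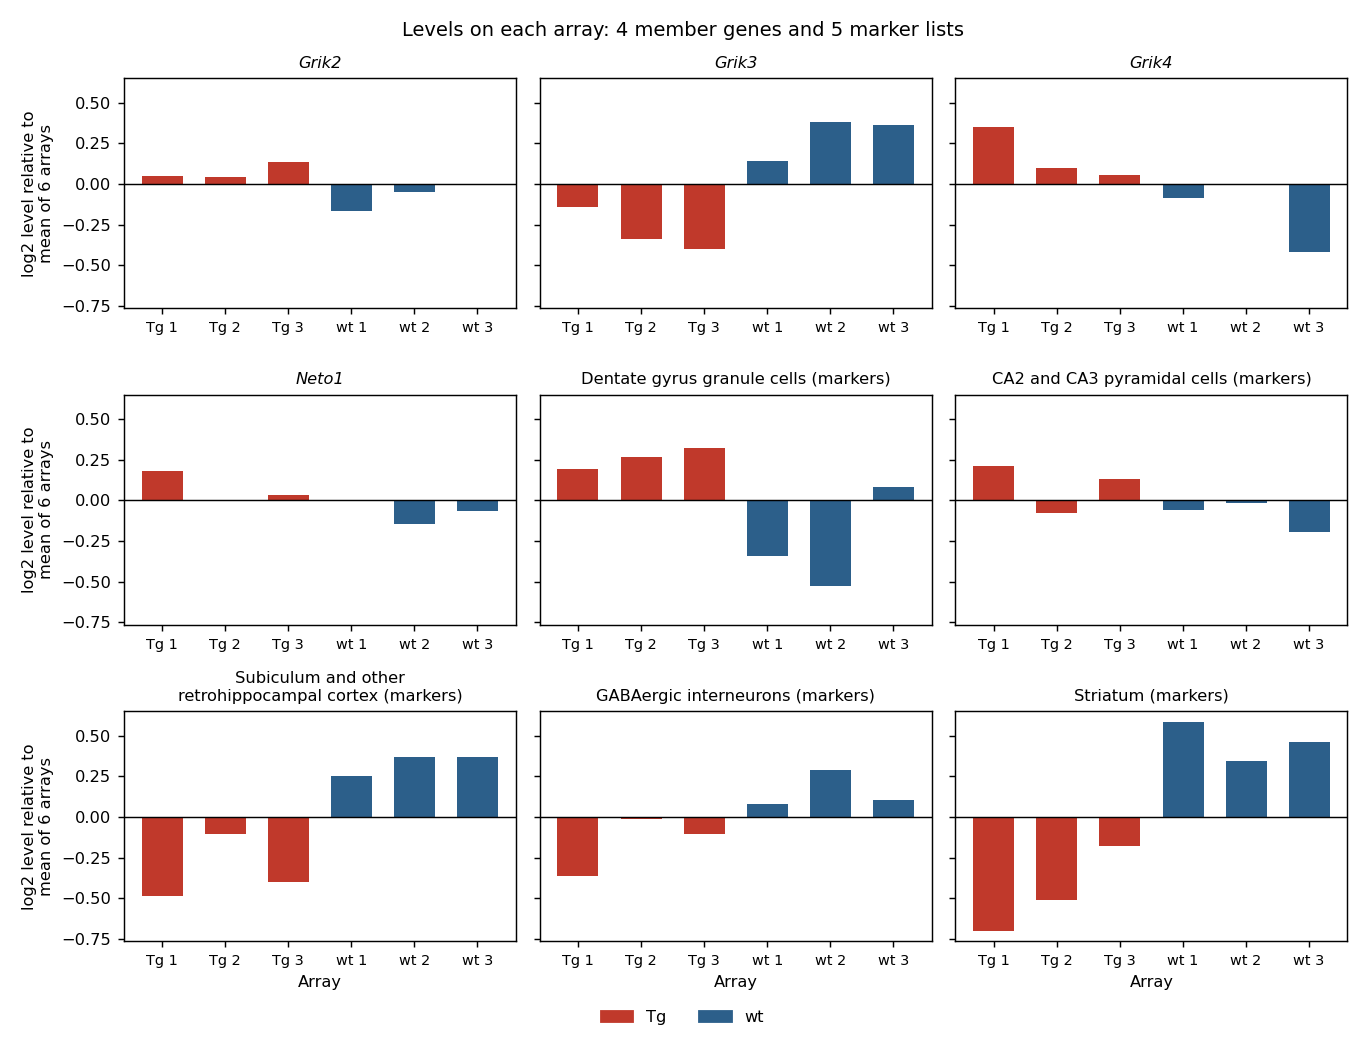
Mean-centred log2 level on each array of 4 member genes and of 5 marker lists, where 0 is the mean over the 6 arrays. Grik3, retrohippocampal, interneuron and striatal levels are above 0 in the 3 wt arrays and below in the 3 Tg arrays.

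The arrays differed in other ways too. The 18S control probeset read 13960.1 in wt 1 and 10375.2 in wt 2 but from 975.5 to 3312.8 on the other 4 arrays. The 3′ to 5′ ratio of Actb was 1.66 ± 0.027 in Tg and 1.84 ± 0.13 in wt (SD, n = 3 each, p = 0.1 by a two-sided exact permutation test, which cannot give less with 3 against 3), and that of Gapdh 0.787 ± 0.011 and 0.824 ± 0.079 (exact permutation p = 0.6). Without wt 1 and wt 2 the Grik3 difference stayed within the range given above. Both Glud1 probesets read no higher in Tg (1416209_at 4639.5 to 5393.8 against 5031.1 to 5729.2, and 1448253_at 5115.6 to 5595.7 against 5647.3 to 6383.3), so the group labels were not checked by the transgene, which these probesets need not detect.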

How the data were processed

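Hippocampal RNA of 3 Glud1 Tg and 3 wt mice was measured on 1 array each. The deposited intensities are MAS5 signals on a linear scale, 1 per probeset and array, made by the authors before deposit; the genome build is not given in the sources used here. After removal of 64 control probesets, the dimmest 31% by mean log2 level were dropped, which kept 31076. Values were taken as log2(signal + 16) and compared with limma 3.58.1 in R 4.3.3 (intensity trend, no covariate), with Benjamini-Hochberg adjustment over all kept probesets and a threshold of 0.05. The study used RMA values, SAM and Cyber-T; SAM was not run here, and Cyber-T was run as an alternative (window 101, confidence 10), as were other constants, scalings, filters and left-out arrays. Each of 13854 genes was read at its brightest kept probeset.

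Members and gene lists were chosen with earlier results of these data known. By rule, the text names all members, the 2 genes most like each, partners and other Glu receptors with an unadjusted p under 0.05, the 3 brightest other partners and the 2 brightest markers of each list. The scripts were tested on simulated data with normal noise. There limma called 1.49% of probesets changed 1.3-fold, 40.3% of those changed 2-fold and 97.0% of those changed 4-fold, at an adjusted p under 0.05. Changes of the smaller sizes would therefore mostly go uncalled. Replicate numbers do not pair the mice: correlations of same-numbered deviations were −0.016, 0.0078 and 0.033. Figures were drawn with matplotlib 3.10.9. The number of arrays limits the precision.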

Additional observations from a re-analysis of the deposited data

How the results depend on the processing

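No member probeset passed the adjusted test under any alternative that ran it. Over all probesets, limma called 0, Cyber-T called 65, the fit with a replicate block 1, and leaving out 1 array gave from 0 to 6 (6 without Tg 2, 1 without wt 1 and 1 without wt 3). An unadjusted p of at most 0.05 with a difference of at least 1.3-fold passed 2148 probesets, of which 1 was a member, Grik3. These are part of the study's criteria, without its limit on the false discovery rate. Member probesets at an unadjusted p under 0.05 rose from 1 to 2 with array weights, in the range from 1 to 2 when single arrays were left out (2 without wt 2), and to 2 without both wt 1 and wt 2, an alternative chosen after seeing the data. With 1 value per gene the count was likewise 1 to 2 when single arrays were left out, 2 with array weights, 2 without both wt arrays and 2 when the probesets of each gene were averaged. The second gene was Grik4 each time. The causes were not tested. The share of all probesets at this threshold was not taken under these alternatives, so the rise is not read as a result about Grik4. In the main fit the share was 9.69% of probesets and 7.87% of genes. The replicate block changed no member call. Grik1 1439987_at and Neto2 1457344_at gave no value when the brightest 50% of probesets were kept, and averaging left the differences of Grik3, Grik4 and Grik5 as they were, since each has 1 kept probeset, but that limma fit pools its spread over genes (Grik4 unadjusted p = 0.0474).

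The directions of Grik2 1457683_at, Grik3, Grik4, Neto1 1441815_at and Neto2 1436309_at held under every alternative run. The others turned at least once. Grik1 1427676_a_at was −0.028 under quantile normalization, −0.022 when centred, −0.0079 with array weights, −0.060 without both wt arrays, −0.027 as the mean of its probesets and −0.16 to 0.20 with single arrays left out. Grik5 was 0.0095 under quantile normalization, 0.010 with array weights, 0.13 without both wt arrays and −0.10 to 0.11 with single arrays left out. Grid1 1441499_at was 0.0095 with array weights, 0.12 without both wt arrays and −0.13 to 0.061 with single arrays left out. Neto1 1456283_at was −0.046 when centred, −0.076 without both wt arrays and −0.055 to 0.16 with single arrays left out. Grik2 1425790_a_at was −0.051 without both wt arrays. With single arrays left out the ranges were −0.22 to 0.033 at Grik1 1439987_at, −0.31 to 0.16 at Grid1 1421569_at, −0.00067 to 0.26 at Neto1 1425132_at, −0.18 to 0.56 at Neto2 1454032_at and −0.43 to 0.38 at Neto2 1457344_at. Scaling moved the split of all probesets at an unadjusted p under 0.05 from 1837 higher and 1174 lower to 1549 and 1273 under quantile normalization and to 1226 and 2162 with arrays centred.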
